A study of Mus musculus with 8 samples.

Results

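The genes described here are 10 genes of cholesterol efflux and of the liver X receptors (LXRs), measured by RNA-seq in tumor-associated macrophages (TAMs). The genes were taken by their names in the deposited tables, and all 10 were found among the 26939 genes of the joined tables. All 10 passed the filter on low counts in each of the 5 tests described here, with between 408 and 133890 counts per gene and library. The TAMs came from EO771 breast tumors, grown in the mammary fat pad of female mice of 8 to 14 weeks and harvested on day 21, and the sort kept live cells positive for CD45, CD11b and F4/80 and negative for Gr-1. There were 4 groups of 2 libraries each. WT control TAMs came from C57BL/6J mice and Unc93b1 3d/3d control TAMs from mice homozygous for the 3d allele of Unc93b1 in every tissue, a missense mutation that keeps the endosomal receptors TLR3, TLR7 and TLR9 from signaling. WT αMARCO and Unc93b1 3d/3d αMARCO TAMs came from mice of the same genotypes given 100 µg of an antibody against the scavenger receptor MARCO on each occasion, every 3 days from day 3 to day 12. All 4 groups bore tumors. The control mice are labelled untreated, their library names carry PBS and the series description names an isotype antibody, so the injection they received is not settled. Each control sample pooled 3 mice, and no such statement was found for the treated samples. Nothing in the labels says that the 2 libraries of a group came from separate experiments, so the p-values measure only the spread between these libraries, which may be technical.

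Cholesterol reaches macrophages with lipoproteins and dying cells, and NPC2 and NPC1 carry it out of the lysosome. Surplus cholesterol is turned into oxysterols, which activate LXRα and LXRβ, nuclear receptors that bind DNA together with a retinoid X receptor and switch on genes for getting rid of cholesterol. Their targets include the exporters ABCA1 and ABCG1, the acceptor protein apolipoprotein E, the ligase MYLIP, which removes the LDL receptor, and the phospholipid enzyme LPCAT3. CH25H makes an oxysterol and is also known as a gene induced by interferon. When sterol is scarce, the opposing factor SREBP2 raises cholesterol synthesis and uptake.

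The promoters of Abca1 and Ch25h are shown because both genes had higher counts in Unc93b1 3d/3d than in WT control TAMs, while the 2 genotypes differed under αMARCO in Ch25h but not detectably in Abca1 once the library described below was left out. The windows reach from 250 bases before to 50 bases after the start site in RefSeq, on build GRCm38.p6, and are written 5′ to 3′ on the strand of the gene. The Abca1 window lies at chr4:53159846-53160145 and the Ch25h window at chr19:34475099-34475398, both on the minus strand. Capitals mark the stretch closest to the LXR element.
Abca1: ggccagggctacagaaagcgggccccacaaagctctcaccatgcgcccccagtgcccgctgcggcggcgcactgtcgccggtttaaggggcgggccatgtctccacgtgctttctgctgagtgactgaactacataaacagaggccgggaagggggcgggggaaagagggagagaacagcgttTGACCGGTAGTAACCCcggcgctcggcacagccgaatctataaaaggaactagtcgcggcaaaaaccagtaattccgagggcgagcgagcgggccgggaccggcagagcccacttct
Ch25h: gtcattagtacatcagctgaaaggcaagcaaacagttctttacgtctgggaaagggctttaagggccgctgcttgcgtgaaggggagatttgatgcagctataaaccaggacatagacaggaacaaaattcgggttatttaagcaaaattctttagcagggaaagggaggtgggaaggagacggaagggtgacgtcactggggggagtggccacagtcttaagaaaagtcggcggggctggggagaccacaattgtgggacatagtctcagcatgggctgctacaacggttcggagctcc
The LXR element was searched on both strands as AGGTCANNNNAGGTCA, a direct repeat named DR4. No window of the 8 genes for which one was used, 11 windows in all, held it with up to 2 mismatches, which 3.02% of 32851 promoter windows did. Abcg1 and Npc1 are not among these 8 genes, and their promoters were not searched. With up to 3 mismatches, 21.9% of all windows and 1 of the 11 held it. This was the window of Abca1, where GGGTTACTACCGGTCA lay on the opposite strand from −67 to −52, counted from the start site. The limit of 3 mismatches was set after the windows had been seen. The single repeat unit AGGTCA, which is part of DR4, was in 16.3% of all windows and the interferon element GAAANNGAAA in 3.44%, and neither was in any of the 11. The share of G and C was 62.7% with 26 CpG in the Abca1 window and 51% with 10 CpG in the Ch25h window. A match or its absence describes these letters in these windows only.

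The libraries held 15182618 to 26411936 counts, and 3 counts, taken as the limit of detection, corresponded to 0.114 to 0.198 CPM. Unc93b1 was read at 848 and 965 CPM in WT control, 749 and 707 in WT αMARCO, 539 and 660 in Unc93b1 3d/3d control and 557 and 641 CPM in Unc93b1 3d/3d αMARCO TAMs, and because the 3d allele is a missense mutation this level does not check the genotype. Marco itself had only 1 to 17 counts per library. All 10 listed macrophage markers were above the limit of detection in every library, with a sum of 9565 to 13700 CPM. Csf1r had 904 to 1131 CPM. Adgre1 and Itgam, which encode proteins used in the sort, varied more between the groups. Adgre1 had 573 and 720 CPM in WT control and 478 and 544 CPM in Unc93b1 3d/3d control TAMs. With αMARCO it had 444 and 438 CPM in WT and 372 and 331 CPM in Unc93b1 3d/3d TAMs. Itgam had 491 and 499 CPM in WT control and 291 and 342 CPM in Unc93b1 3d/3d control TAMs. With αMARCO it had 585 and 721.5 CPM in WT and 422 and 512 CPM in Unc93b1 3d/3d TAMs. Adipocyte markers summed to at most 0.816 CPM. Markers of other cells differed between the groups, and T cell markers (8 of 10 above the limit in every library) summed to 109 and 126 CPM in WT control and 4.96 to 18.8 elsewhere. Mature dendritic cell markers (6 of 7) summed to 969 and 506 CPM in WT control and 69.5 to 161 elsewhere. Nonclassical monocyte markers (6 of 7) summed to 1228 to 1450 CPM in the WT libraries and 445 to 1024 CPM in the Unc93b1 3d/3d libraries. Fewer cells of a type and less RNA per cell cannot be told apart in such bulk samples, and the part of these cells in the results below was not tested.

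The second Unc93b1 3d/3d αMARCO library stood apart. Over all genes its log2 CPM differed from that of its partner with a root mean square of 1.02, against 0.44 to 0.58 for the other pairs of libraries of a group. Coding genes of at least 8 kb took 11.3% of its counts and 15.4% to 18.8% in the other 7 libraries. The log2 ratio to its partner had a median of 0.86 for coding genes under 1 kb and of −0.54 for those of at least 8 kb. The longest of the 10 genes had ratios on this side, −0.85 for Abca1 (10363 bases) and −0.88 for Npc1 (10725 bases), while Apoe (2138 bases) had 1.17 and Npc2 (5438 bases) 0.65. The main results that rest on this library are therefore given with and without it.

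**Figure D1:**
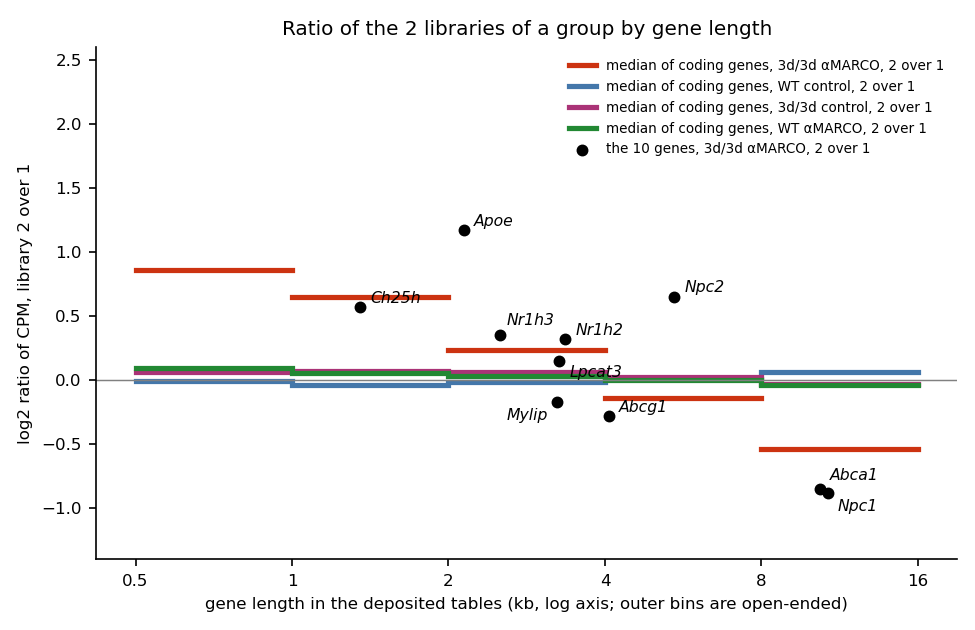
Log2 ratio of CPM between the 2 libraries of each group (vertical axis) against gene length (horizontal log axis), with bars for the median of coding genes per length bin in each of the 4 groups and black points for the 10 genes in Unc93b1 3d/3d αMARCO. The Unc93b1 3d/3d αMARCO bars run from 0.86 to −0.54, while the bars of the other 3 groups lie between −0.04 and 0.09.

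Divided by gene length, Apoe had the highest level of the 10 genes in every group, with means of 1125 to 2900 CPM per kb, and Npc2 followed with means of 142 to 172 CPM per kb. In WT control TAMs the next levels were 93.7 CPM per kb for Abcg1, 72.7 for Nr1h3, 45.3 for Nr1h2, 19.6 for Ch25h, 16.3 for Mylip, 13.8 for Lpcat3, 13.2 for Npc1 and 10.7 for Abca1. The libraries of Ch25h and Mylip overlapped on this scale, as did those of Lpcat3 and Npc1. In Unc93b1 3d/3d control TAMs the order after Npc2 was Ch25h with 80.2 CPM per kb, Abcg1 with 65.9, Nr1h2 with 42.1, Abca1 with 41.2, Mylip with 22.2, Nr1h3 with 20.4, Npc1 with 15.7 and Lpcat3 with 9.8. There the neighbors Ch25h and Abcg1, Nr1h2 and Abca1, and Mylip and Nr1h3 overlapped. Abca1 thus stood last of the 10 in WT control and sixth in Unc93b1 3d/3d control TAMs, and Ch25h stood sixth in WT control and after Npc2 in Unc93b1 3d/3d control TAMs.

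**Figure D2:**
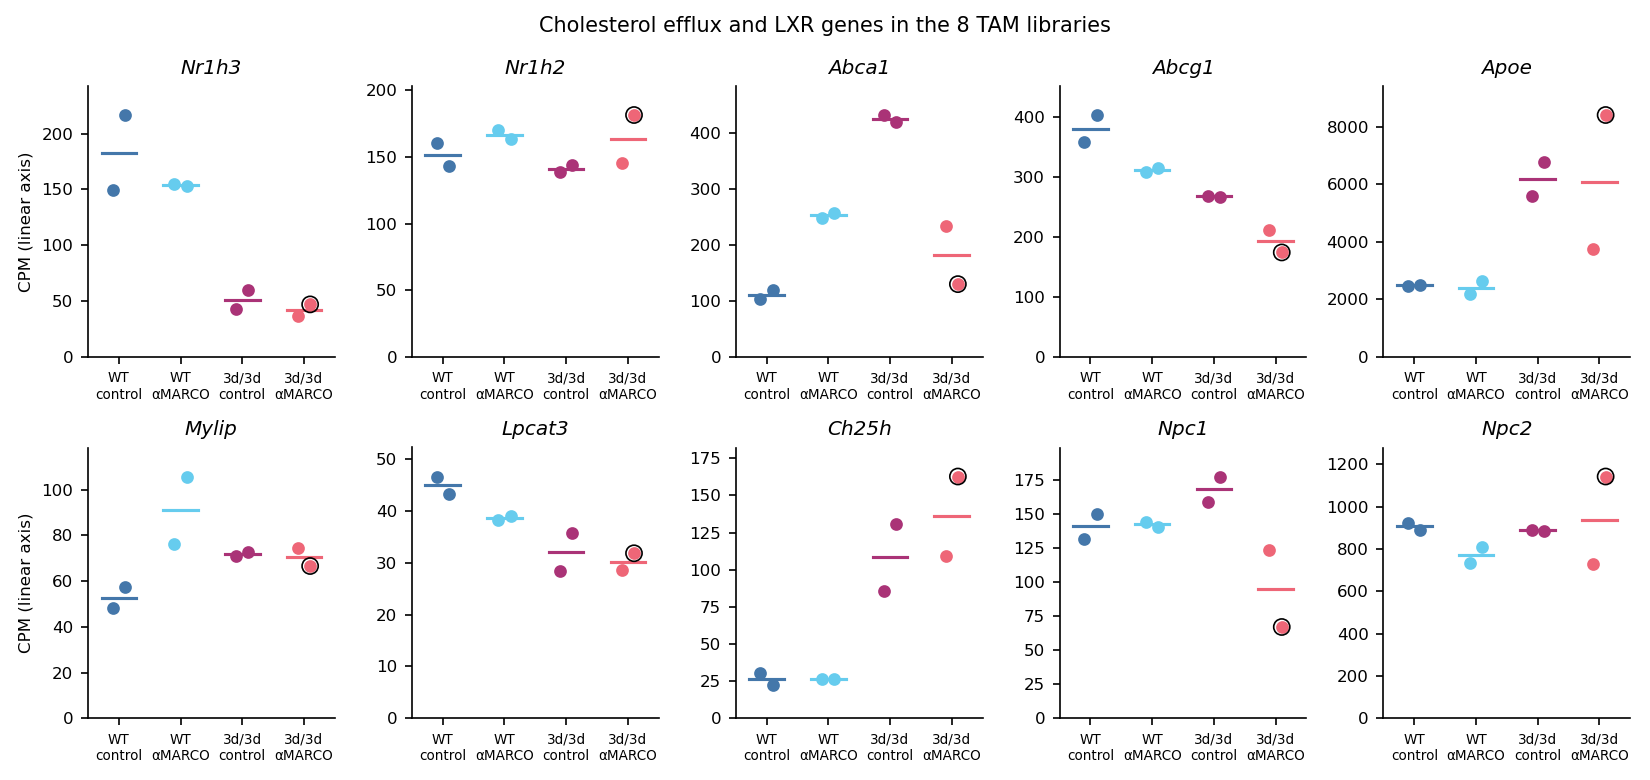
CPM of the 10 genes (vertical axes, linear from 0) in the 4 groups, with a point for each library, a line for the mean of the 2 libraries and a black ring around the second Unc93b1 3d/3d αMARCO library. Nr1h3 lies at 149 to 217 CPM in the WT libraries and at 36.8 to 59.9 CPM in the Unc93b1 3d/3d libraries, and Ch25h at 22.6 to 30.2 and 85.9 to 163 CPM.

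The first question was what αMARCO treatment did in WT TAMs. A gene passed edgeR's quasi-likelihood test when its adjusted p did not exceed 0.05 and its log2 fold change reached 0.5 in either direction, and SE stands for the standard error of a log2 fold change. Abca1 and Mylip rose, 2 of the 10 genes, where 8.91% of the 15630 tested genes rose, and 0 of the 10 fell, where 11.8% of all did. The median log2 fold change was −0.02 over the 10 genes and −0.01 over all tested genes. In a model of all 8 libraries, which includes the library that stood apart, 0 of the 10 genes passed, with 0.271% of 16620 genes higher and 0.716% lower. The T cell and mature dendritic cell markers were higher in the WT control libraries of this comparison, as given above.

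In Unc93b1 3d/3d TAMs, 0 of the 10 genes passed the test of αMARCO against control, and 0% of all 15428 genes did in edgeR, with 744 genes at an unadjusted p under 0.05. DESeq2 found 32 genes higher (0.207%) and 28 lower (0.181%), of which Abca1 was one of the lower genes. Without the library that stood apart, Abca1 and Apoe fell, with 1.59% of 16754 genes higher and 1.81% lower. With that library as the only αMARCO sample instead, Abca1, Abcg1 and Npc1 were lower, with 16.9% of 16110 genes higher and 17.2% lower. In each fit with such a lone library, that library is assumed to vary like the others.

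Between the genotypes in control TAMs, 4 of the 10 genes differed. Nr1h3 was higher in WT, where 6.58% of 15600 genes were higher, and Abca1, Apoe and Ch25h were lower in WT, where 6.4% of genes were lower. A further 3 genes, Abcg1, Mylip and Lpcat3, had adjusted p-values under 0.05 in edgeR but log2 fold changes under the threshold. In the model of all 8 libraries Nr1h3, Abca1 and Ch25h still passed, with 1.5% of 16620 genes higher and 0.692% lower in WT, and Apoe did not. The same markers separated the 2 groups here. The WT control libraries serve in this comparison and in that of αMARCO in WT, so the log2 fold changes of the 2 comparisons are not independent of each other.

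Between the genotypes under αMARCO, 0 of the 10 genes and 0% of 15722 genes passed in edgeR, with 1076 genes at an unadjusted p under 0.05. DESeq2 found 140 genes higher in WT (0.89%) and 74 lower (0.471%), with Nr1h3 among the higher and Ch25h among the lower genes. The model of all 8 libraries gave the same direction for these 2 genes, which passed there along with 0.457% of genes higher and 0.193% lower. Without the library that stood apart, Nr1h3 and Abcg1 were higher and Apoe and Ch25h lower in WT, with 3.44% of 16795 genes higher and 4.02% lower. With that library as the only Unc93b1 3d/3d αMARCO sample, 4 of the 10 genes (Abca1, Abcg1, Nr1h3 and Npc1) were higher and 3 (Apoe, Ch25h and Npc2) lower in WT, with 20% of 16500 genes higher and 18.5% lower.

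The αMARCO effects in the 2 genotypes were compared with an interaction term over all 8 libraries. In edgeR, 0 of the 10 genes and 0% of 16620 genes passed, with 2549 genes at an unadjusted p under 0.05. DESeq2 found 110 genes higher (0.662%) and 101 lower (0.608%) in this difference, with Abca1 among the higher genes. Without the library that stood apart, Abca1 was the only one of the 10 to pass, with 1.66% of 17724 genes higher and 1.79% lower. With that library as the only Unc93b1 3d/3d αMARCO sample, Abca1, Mylip and Npc1 were higher and Npc2 lower, with 18.5% of 17701 genes higher and 17.9% lower.

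**Figure D3:**
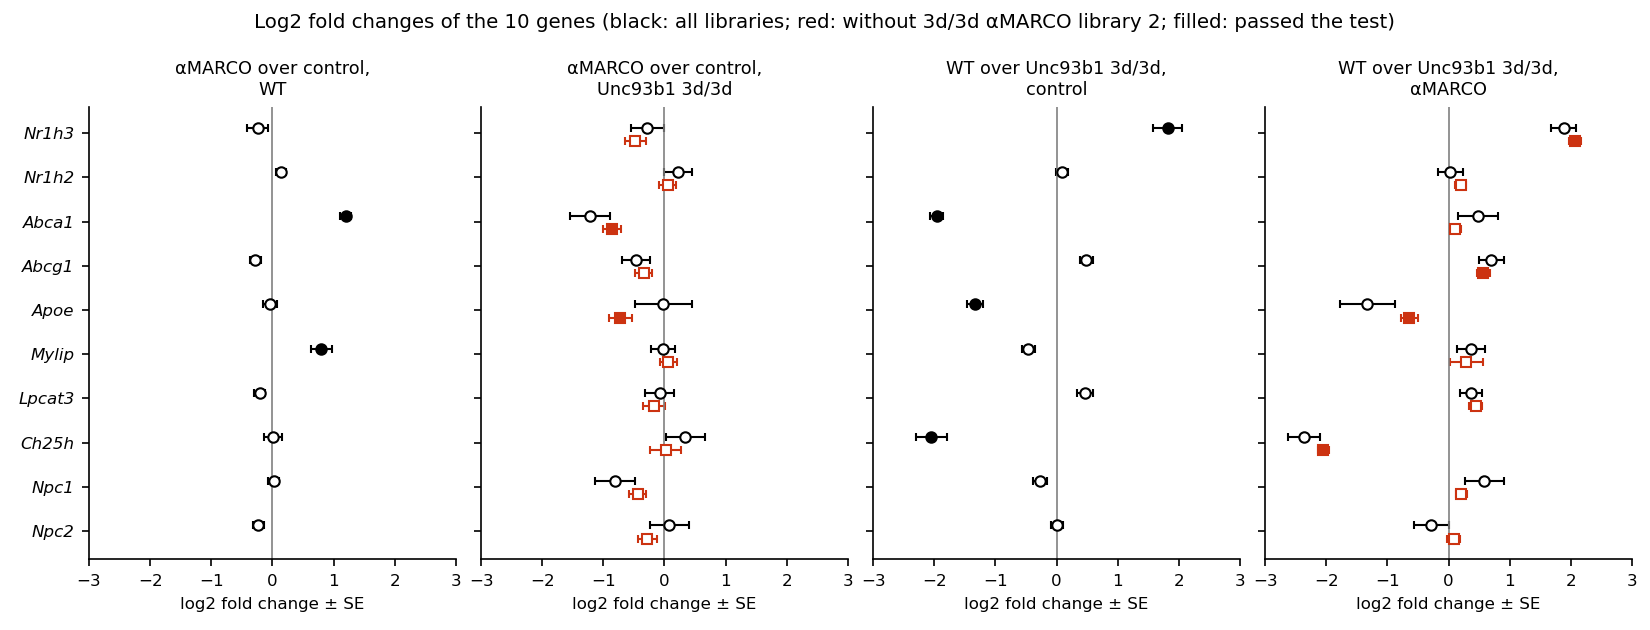
Log2 fold change with standard error (horizontal axis) of the 10 genes in the 4 comparisons of 2 groups, in black with all 4 libraries and in red without the second Unc93b1 3d/3d αMARCO library, filled where the gene passed the test. Abca1 lies at 1.20 for αMARCO in WT, −1.22 for αMARCO in Unc93b1 3d/3d and −1.96 for WT over Unc93b1 3d/3d in control.

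Among the receptors, Nr1h3 (ENSMUSG00000002108, chromosome 2, 91184061 to 91202834, minus strand), which encodes LXRα, divided the libraries by genotype. It had 149 and 217 CPM in WT control and 155 and 153 CPM in WT αMARCO TAMs, against 42.6 and 59.9 CPM in Unc93b1 3d/3d control and 36.8 and 47 CPM in Unc93b1 3d/3d αMARCO TAMs. Every WT library lay above every Unc93b1 3d/3d library, and the treatments overlapped within each genotype. In control TAMs Nr1h3 was 3.5-fold higher in WT (log2 fold change 1.82, SE 0.24, adjusted p = 0.0094, edgeR). Under αMARCO the log2 fold change was 1.88 (SE 0.20, adjusted p = 0.171, edgeR), and 2.07 (adjusted p = 7.48e-12, edgeR) without the library that stood apart. The interaction was 0.05 (SE 0.33, adjusted p = 0.947, edgeR), and 0.22 (adjusted p = 0.823, edgeR) without that library, so that no difference between the αMARCO effects was detectable. The nonclassical monocyte marker sums divided the libraries by genotype as well, as did those of endothelium (198 to 298 CPM in the WT and 99.7 to 133 CPM in the Unc93b1 3d/3d libraries; 5 of 6 markers above the limit in every library), B cells (73.5 to 157 and 26.5 to 52.2 CPM; 5 of 8) and neutrophils (316 to 380 and 219 to 268 CPM; 4 of 7). Emcn of the endothelium list was at 0 in some libraries. Whether any of them bear on Nr1h3, Abcg1 or Lpcat3, which were likewise higher in every WT library, was not tested. The same holds for Apoe and Ch25h, which were higher in every Unc93b1 3d/3d library instead. Nr1h2 (ENSMUSG00000060601, chromosome 7, 44549616 to 44553951, minus strand) encodes LXRβ. It had 161 and 143 CPM in WT control, 170 and 164 in WT αMARCO, 139 and 144 in Unc93b1 3d/3d control and 146 and 181 CPM in Unc93b1 3d/3d αMARCO TAMs. Its log2 fold changes lay between 0.03 and 0.22 in the 4 comparisons of 2 groups, and it passed none of them. Leaving out the library that stood apart, they were 0.05 for αMARCO in Unc93b1 3d/3d (adjusted p = 0.938, edgeR) and 0.20 between the genotypes under αMARCO (adjusted p = 0.195).

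Abca1 (ENSMUSG00000015243, chromosome 4, 53030787 to 53159895, minus strand) encodes the transporter that loads cholesterol and phospholipid onto apolipoprotein A-I. It had 103 and 120 CPM (counts of 1954 and 2157) in WT control, 249 and 258 CPM in WT αMARCO, 433 and 421 CPM (counts of 6899 and 8291) in Unc93b1 3d/3d control, and 235 and 130.2 CPM in Unc93b1 3d/3d αMARCO TAMs. The groups did not overlap in any of the 4 comparisons of 2 groups, with the lowest levels in WT control and the highest in Unc93b1 3d/3d control. Such separation was common among all tested genes. With αMARCO, 34.1% lay higher and 36.8% lower without overlap in WT, and 19.7% and 19.2% in Unc93b1 3d/3d. For WT over Unc93b1 3d/3d the shares were 33.2% and 29.9% in control and 22.1% and 22.2% under αMARCO. The same shares apply to the other genes. In WT TAMs αMARCO raised Abca1 2.3-fold (log2 fold change 1.20, SE 0.09, adjusted p = 6.54e-05, edgeR), and it was not called in the model of all 8 libraries (adjusted p = 0.0742, edgeR). With the library that stood apart, which is in neither WT group, left out of that model, Abca1 was called at a log2 fold change of 1.17. In Unc93b1 3d/3d TAMs the log2 fold change was −1.22 (SE 0.33, adjusted p = 0.823, edgeR). Without the library that stood apart it was −0.86 (SE 0.15, adjusted p = 3.21e-05, edgeR), and without its partner −1.70. In control TAMs Abca1 was 3.88-fold higher in Unc93b1 3d/3d than in WT (log2 fold change of WT over Unc93b1 3d/3d −1.96, SE 0.11, adjusted p = 9.42e-06, edgeR). Under αMARCO the same log2 fold change was 0.48 (SE 0.32, adjusted p = 0.709, edgeR), and 0.11 (adjusted p = 0.529) without the library that stood apart. The interaction was 2.42 (SE 0.36, adjusted p = 0.281, edgeR) with all libraries and 2.04 (SE 0.16, adjusted p = 2.43e-05, edgeR) without it.

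Abca1 is a long gene, and long genes moved with the groups as well. Coding genes of at least 8 kb had median log2 ratios of 0.17 for αMARCO over control in WT and of −0.18 for WT over Unc93b1 3d/3d in control TAMs. With an offset for gene length and GC content in each library, chosen after the data had been seen, the log2 fold changes of Abca1 were 1.11 (adjusted p = 0.000162, edgeR) and −1.80 (adjusted p = 1.42e-05, edgeR) in these comparisons. With the same offset and all libraries, Abca1 had −1.06 for αMARCO in Unc93b1 3d/3d (adjusted p = 0.622, edgeR). Between the genotypes under αMARCO it had 0.37 (adjusted p = 0.588, edgeR). The interaction was 2.15 (adjusted p = 0.0574, edgeR), which did not pass.

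Abcg1 (ENSMUSG00000024030, chromosome 17, 31057698 to 31115777, plus strand) encodes the transporter that passes cholesterol to high-density lipoprotein. It had 358 and 404 CPM in WT control, 309 and 316 in WT αMARCO, 269 and 267 in Unc93b1 3d/3d control and 211 and 174 CPM in Unc93b1 3d/3d αMARCO TAMs. The groups did not overlap, and their order was not that of Abca1, with the highest level in WT control. No log2 fold change of Abcg1 passed the test with all libraries, at −0.28 for αMARCO in WT (adjusted p = 0.0335, edgeR), −0.47 for αMARCO in Unc93b1 3d/3d (adjusted p = 0.823), 0.49 for WT over Unc93b1 3d/3d in control (adjusted p = 0.0102) and 0.70 under αMARCO (adjusted p = 0.595). With the library that stood apart left out, the last value was 0.57 (SE 0.10, adjusted p = 0.000352, edgeR), which passed, and that of αMARCO in Unc93b1 3d/3d was −0.34 (adjusted p = 0.222).

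Apoe (ENSMUSG00000002985, chromosome 7, 19696109 to 19699188, minus strand) encodes apolipoprotein E, which macrophages secrete and which takes up exported cholesterol. It had 2475 and 2510 CPM in WT control, 2186 and 2625 in WT αMARCO, 5607 and 6792 in Unc93b1 3d/3d control and 3747 and 8417 CPM in Unc93b1 3d/3d αMARCO TAMs. All Unc93b1 3d/3d libraries lay above all WT libraries, and the widest gap between libraries of a group was that of Unc93b1 3d/3d αMARCO. In control TAMs Apoe was 2.51-fold higher in Unc93b1 3d/3d (log2 fold change of WT over Unc93b1 3d/3d −1.33, SE 0.13, adjusted p = 0.000269, edgeR). In the model of all 8 libraries it did not pass (adjusted p = 0.117, edgeR). With the library that stood apart, which is in neither control group, left out of that model, Apoe passed at a log2 fold change of −1.30. Under αMARCO the log2 fold change was −1.33 (SE 0.45, adjusted p = 0.696, edgeR), and −0.64 (SE 0.14, adjusted p = 0.00504, edgeR) without the library that stood apart. The log2 fold change of αMARCO was −0.04 in WT (adjusted p = 0.794, edgeR). In Unc93b1 3d/3d it was −0.02 (SE 0.47) with all libraries, −0.72 (adjusted p = 0.0145, edgeR) without the library that stood apart and 0.46 without its partner, so its direction depended on which library was left out.

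Mylip (ENSMUSG00000038175, chromosome 13, 45389742 to 45412022, plus strand), the ubiquitin ligase of the LDL receptor, had 48.3 and 57.3 CPM in WT control, 76.4 and 106 in WT αMARCO, 71.2 and 72.6 in Unc93b1 3d/3d control and 74.7 and 66.6 CPM in Unc93b1 3d/3d αMARCO TAMs. WT control was the low group, below the libraries of the other 3 groups. αMARCO raised Mylip 1.74-fold in WT TAMs (log2 fold change 0.80, SE 0.17, adjusted p = 0.0152, edgeR). The call rested on both WT control libraries, with adjusted p-values of 0.22 without the first and 0.145 without the second (log2 fold changes 0.67 and 0.92, edgeR), and it was also lost in the model of all 8 libraries (adjusted p = 0.0891). With the library that stood apart left out of that model, Mylip was called in WT TAMs at a log2 fold change of 0.77. In Unc93b1 3d/3d TAMs the log2 fold change was −0.02 (SE 0.20, adjusted p = 0.982, edgeR). The interaction was 0.81 (SE 0.26, adjusted p = 0.318, edgeR) with all libraries and 0.72 (adjusted p = 0.138, edgeR) without the library that stood apart. Between the genotypes the log2 fold change was −0.46 in control (adjusted p = 0.0192, edgeR), under the fold threshold, and 0.37 under αMARCO (adjusted p = 0.709). With that library left out, Mylip had 0.06 for αMARCO in Unc93b1 3d/3d (adjusted p = 0.92, edgeR) and 0.29 between the αMARCO genotypes (adjusted p = 0.654).

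Lpcat3 (ENSMUSG00000004270, chromosome 6, 124663027 to 124704418, plus strand), an enzyme that puts polyunsaturated fatty acids into phospholipids, had 46.6 and 43.2 CPM in WT control, 38.3 and 39 in WT αMARCO, 28.4 and 35.7 in Unc93b1 3d/3d control and 28.6 and 31.8 CPM in Unc93b1 3d/3d αMARCO TAMs. The WT libraries lay above the Unc93b1 3d/3d libraries under either treatment. The log2 fold change of WT over Unc93b1 3d/3d was 0.47 in control (SE 0.13, adjusted p = 0.0342, edgeR) and 0.36 under αMARCO (SE 0.18, adjusted p = 0.709, edgeR), both under the threshold. Those of αMARCO were −0.21 in WT (adjusted p = 0.0996) and −0.08 in Unc93b1 3d/3d TAMs (adjusted p = 0.939). When the library that stood apart was left out, Lpcat3 had −0.17 for αMARCO in Unc93b1 3d/3d (adjusted p = 0.77, edgeR) and 0.44 between the αMARCO genotypes (adjusted p = 0.0136), still under the fold threshold.

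Ch25h (ENSMUSG00000050370, chromosome 19, 34473786 to 34475135, minus strand) encodes cholesterol hydroxylase, an enzyme of oxysterol synthesis. It had 30.2 and 22.6 CPM in WT control (counts of 573 and 408) and 26.3 and 26.5 in WT αMARCO, against 85.9 and 131 in Unc93b1 3d/3d control (counts of 1368 and 2575) and 109 and 163 CPM in Unc93b1 3d/3d αMARCO TAMs. All Unc93b1 3d/3d libraries lay above all WT libraries, and the treatments overlapped within each genotype. In control TAMs Ch25h was 4.15-fold higher in Unc93b1 3d/3d (log2 fold change of WT over Unc93b1 3d/3d −2.05, SE 0.25, adjusted p = 0.00663, edgeR). Under αMARCO the log2 fold change was −2.36 (SE 0.26, adjusted p = 0.171, edgeR), and −2.05 (SE 0.09, adjusted p = 4.34e-12, edgeR) without the library that stood apart. The log2 fold change of αMARCO was 0.01 in WT and 0.34 in Unc93b1 3d/3d TAMs (adjusted p = 0.975 and 0.824, edgeR), and the interaction was −0.33 (SE 0.37, adjusted p = 0.634, edgeR). With that library left out, the log2 fold change of αMARCO in Unc93b1 3d/3d was 0.02 (adjusted p = 0.991, edgeR) and the interaction −0.03 (adjusted p = 0.984). Fibroblast markers, all 7 above the limit of detection in every library, summed to 190 and 160 CPM in Unc93b1 3d/3d control and 112 and 87.7 CPM in WT control TAMs. Under αMARCO they summed to 172 and 80.45 CPM in Unc93b1 3d/3d and 39.7 and 26.6 CPM in WT TAMs. Whether these markers bear on Ch25h was not tested.

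Of the lysosomal pair, Npc1 (ENSMUSG00000024413, chromosome 18, 12189693 to 12236400, minus strand), the membrane protein, had 132 and 150.4 CPM in WT control, 145 and 140.4 in WT αMARCO, 159 and 178 in Unc93b1 3d/3d control and 124 and 67.2 CPM in Unc93b1 3d/3d αMARCO TAMs. It passed no test with all libraries, and among the comparisons of 2 groups the log2 fold change farthest from 0 was −0.81 for αMARCO in Unc93b1 3d/3d TAMs (SE 0.32, adjusted p = 0.823, edgeR). Without the library that stood apart this was −0.44 (adjusted p = 0.06, edgeR), and without its partner −1.31. Between the genotypes the log2 fold change of Npc1 was −0.27 in control (adjusted p = 0.107, edgeR) and 0.58 under αMARCO (adjusted p = 0.709), the latter 0.21 (adjusted p = 0.166) without the library that stood apart. Npc2 (ENSMUSG00000021242, chromosome 12, 84754562 to 84773152, minus strand), the soluble protein that hands cholesterol to NPC1, had 923 and 890.1 CPM in WT control, 733 and 809 in WT αMARCO, 891 and 885 in Unc93b1 3d/3d control and 729 and 1142 CPM in Unc93b1 3d/3d αMARCO TAMs. Its log2 fold changes lay between −0.28 and 0.08 in the 4 comparisons of 2 groups, and none passed. When that library was left out, Npc2 had −0.28 for αMARCO in Unc93b1 3d/3d (adjusted p = 0.443, edgeR) and 0.08 between the αMARCO genotypes (adjusted p = 0.74).

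Other genes of the pathway were followed in 8 lists written with earlier results of these data known. Over all tested genes, 8.91% rose and 11.8% fell with αMARCO in WT TAMs. Between the control genotypes, 6.58% of all tested genes were higher and 6.4% lower in WT. The counts of every list below are to be read beside these shares. Among other LXR targets of macrophages, 15 of 18 genes were tested in each comparison. In WT TAMs αMARCO raised 0 of them and lowered 2, Fads2 and Pltp, and the list median was −0.14 on the log2 scale. In control TAMs 3 were higher in WT (Pltp, Smpdl3a and Tgm2) and 4 lower (Mertk, Scd1, Acsl3 and Fads1), with a median of −0.05. Pltp, the phospholipid transfer protein, had 448 and 523 CPM in WT control, 335 and 338 in WT αMARCO and 184 and 215 CPM in Unc93b1 3d/3d control TAMs. WT over Unc93b1 3d/3d gave a log2 fold change of 1.27 (adjusted p = 0.000247, edgeR) and αMARCO in WT one of −0.52 (adjusted p = 0.00285, edgeR). Mertk, a receptor for the uptake of dying cells, had 69.5 and 67.8 CPM in WT control and 167 and 168 in Unc93b1 3d/3d control TAMs, a log2 fold change of −1.30. Scd1, the fatty acid desaturase, had a log2 fold change of −1.01 (adjusted p = 0.00861), Acsl3 −0.69, Smpdl3a 0.51 and Tgm2 0.50 in the same edgeR comparison. Fads2 had only 5.32 and 3.94 CPM in WT control and 1.55 and 1.93 CPM in WT αMARCO TAMs. Known LXR targets thus lay on both sides of 0 between the control genotypes.

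Of the partners and coregulators of LXR, 11 of 12 genes were tested, and Rxrg was not analysed here. In WT TAMs αMARCO lowered Rxra, the retinoid X receptor (log2 fold change −0.51, adjusted p = 0.00196, edgeR). In control TAMs Ncoa3, a coactivator, was lower in WT (−0.52, adjusted p = 0.01, edgeR). The median log2 fold changes were 0.07 and −0.03.

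Of 8 further genes of oxysterol synthesis, breakdown and sensing, 5 were tested for αMARCO in WT and 6 between the control genotypes. Cyp7b1, which breaks down oxysterols, had 2.95 and 0.776 CPM in WT control and 0.0771 to 0.188 CPM in WT αMARCO and Unc93b1 3d/3d control TAMs, levels near the limit of detection. It was lower with αMARCO in WT (log2 fold change −4.34, adjusted p = 0.00451, edgeR) and higher in WT control than in the Unc93b1 3d/3d control (3.65, adjusted p = 0.019). These fitted values depend on few counts.

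In the SREBP2 pathway and sterol synthesis, all 21 genes were tested. αMARCO lowered 5 in WT TAMs (Pmvk, Idi1, Sqle, Ebp and Dhcr7), where 11.8% of all tested genes fell, and raised 0, and 4 genes lay above 0 on the log2 scale, where the list median was −0.36. In control TAMs 4 were higher in WT (Insig1, Pmvk, Idi1 and Sqle), where 6.58% of all tested genes were higher, and 0 lower, with a median of 0.32 and 18 genes above 0. Insig1, which holds the SREBP proteins in the endoplasmic reticulum, had 93.7 and 76.6 CPM in WT control and 50 and 50.2 CPM in Unc93b1 3d/3d control TAMs (log2 fold change 0.75, adjusted p = 0.00296, edgeR). Pmvk, a kinase of the mevalonate pathway, had 51.9 and 41 CPM in WT control, 25.2 and 29 in WT αMARCO and 28.6 and 29 CPM in Unc93b1 3d/3d control TAMs. The log2 fold changes of Pmvk were 0.67 between the genotypes (adjusted p = 0.00932) and −0.77 for αMARCO in WT (adjusted p = 0.00221, both edgeR). Idi1 had 0.75 and −0.75, and Ebp −0.70 for αMARCO in WT (adjusted p = 0.0143, 0.00471 and 0.000774, edgeR). Pmvk has 1713 bases, Ebp 2310, Insig1 3093 and Idi1 3505. Between the control genotypes and for αMARCO in WT, coding genes of 1 to 2 kb had median log2 ratios of 0.26 and −0.33 and those of 2 to 4 kb 0.14 and −0.16, on the same side of 0 as these genes, and the part of length in this list was not tested.

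Genes that take up lipoproteins were tested for 6 of 7 members. Lrp1, a large endocytic receptor that binds APOE, had 1109 and 1249 CPM in WT control, 2035 and 1958 in WT αMARCO and 2034 and 2092 CPM in Unc93b1 3d/3d control TAMs. It rose with αMARCO in WT (log2 fold change 0.77, adjusted p = 0.000694, edgeR) and was lower in WT than in Unc93b1 3d/3d control (−0.82, adjusted p = 0.00159), and at 17717 bases it is a long gene. Msr1, a scavenger receptor, was lower (−0.76, adjusted p = 0.0026, edgeR) and Scarb1, a receptor for high-density lipoprotein, higher in WT control (0.67, adjusted p = 0.00461). Among 13 genes of lysosomal and intermembrane cholesterol transport, αMARCO in WT lowered Tmem97 (−0.74, adjusted p = 0.00501, edgeR), and 0 of 13 passed between the control genotypes in edgeR.

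Of 5 genes of cholesterol ester storage and release, Soat1, which esterifies cholesterol, had 166 and 181 CPM in WT control, 246 and 257 in WT αMARCO and 260.2 and 254 CPM in Unc93b1 3d/3d control TAMs. It rose with αMARCO in WT (log2 fold change 0.55, adjusted p = 0.0011, edgeR) and was lower in WT control (−0.59, adjusted p = 0.00414). At 9791 bases Soat1 is a long gene as well. Nceh1, an ester hydrolase, was also lower in WT control (−0.76, adjusted p = 0.00124, edgeR), and the triglyceride lipase gene Pnpla2 was higher (0.62, adjusted p = 0.0049). Of 12 interferon-induced genes, 0 passed for αMARCO in WT in edgeR and the list median was 0.13 on the log2 scale, and Rsad2 alone was lower in WT than in Unc93b1 3d/3d control (−0.59, adjusted p = 0.0203, median −0.17).

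**Figure D4:**
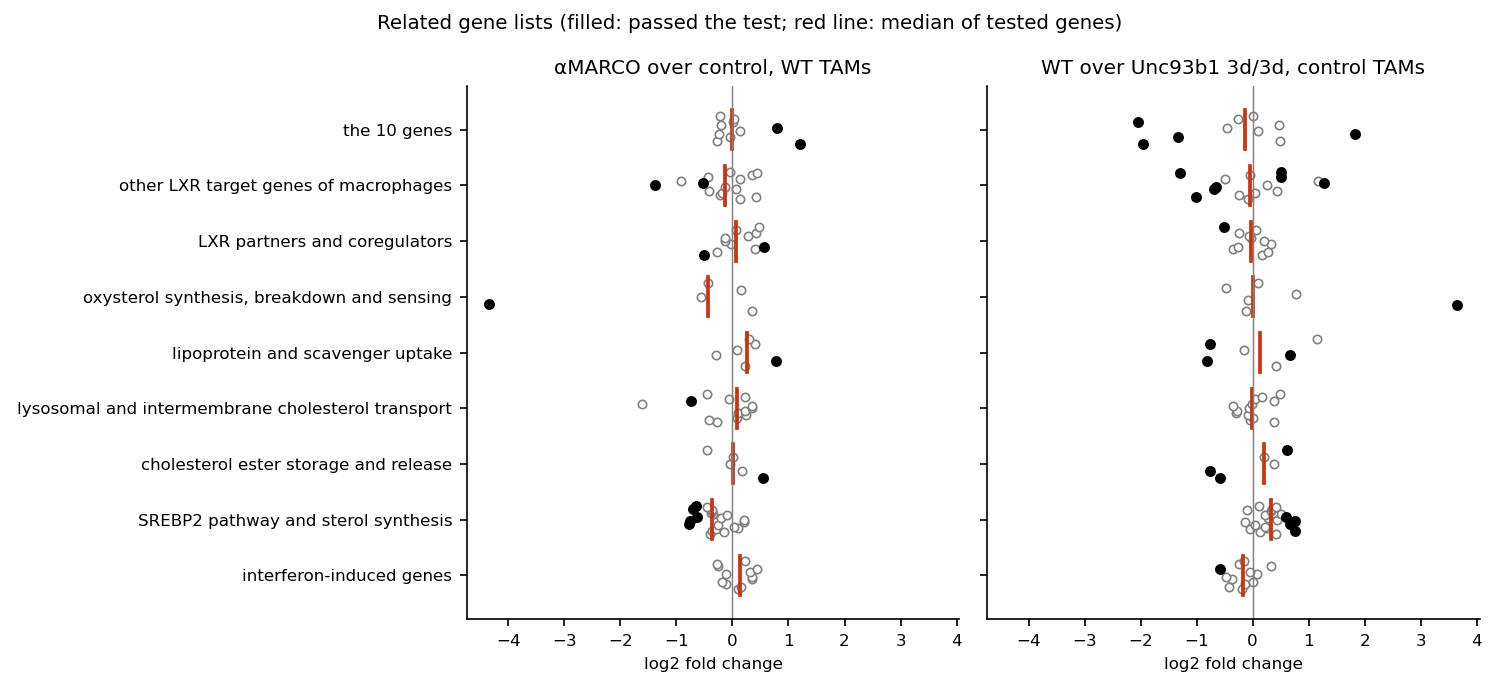
Log2 fold change (horizontal axis) of every tested gene in the 10 genes and 8 related lists, for αMARCO over control in WT (left) and WT over Unc93b1 3d/3d in control TAMs (right), filled where the gene passed the test and with a red line at the median of the list. The SREBP2 list has its median at −0.36 on the left and 0.32 on the right, and the other medians lie between −0.43 and 0.26 on the left and between −0.17 and 0.21 on the right.

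In the comparisons that use the Unc93b1 3d/3d αMARCO libraries, 0 genes of the 8 lists passed in edgeR with all libraries. As 0% of all tested genes passed there, this says nothing about the lists.

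For the 4 genes whose mean log2 CPM spanned at least 1 between groups, the genes with the most similar profile over the 8 libraries were named, by the root mean square difference of log2 CPM after centering, among 16620 genes. For Abca1 these were Sim1 (0.17), Gm16253 (0.20) and Stab1 (0.23). Sim1 and Gm16253 had at most 1.07 CPM in any library. Stab1, a scavenger receptor of tissue macrophages, had 319 and 354 CPM in WT control, 998 and 900.3 in WT αMARCO, 1357 and 1415 in Unc93b1 3d/3d control and 1076 and 589 CPM in Unc93b1 3d/3d αMARCO TAMs. Its WT αMARCO and Unc93b1 3d/3d αMARCO libraries overlapped, while those of Abca1 did not. For Apoe they were Pf4 (0.17), an unnamed transcript (0.20) and Syngr1 (0.21). Pf4, a chemokine gene, had 226 and 234 CPM in WT control and 584 and 759 CPM in Unc93b1 3d/3d control TAMs. For Nr1h3 they were Slc13a3 (0.21), G530011O06Rik (0.22) and an unnamed transcript (0.23). Slc13a3, a transporter of dicarboxylates, had 76.5 to 95.5 CPM in the WT libraries and 26.5 to 33.8 CPM in the Unc93b1 3d/3d libraries. For Ch25h they were Pmepa1 (0.20), Gpr34 (0.33) and an unnamed transcript (0.35). Pmepa1 had 2.77 to 3.68 CPM in the WT libraries and 7.6 to 20 CPM in the Unc93b1 3d/3d libraries.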

How the data were processed

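RNA-seq libraries of TAMs from 4 groups of 2 were analysed as gene counts. Per the labels and the study's methods, the authors trimmed reads with fastp, aligned them to GRCm38 with HISAT2 2.0.5 and counted reads per gene with featureCounts 1.5.0, and the strand setting is not given in the sources used here. The deposited tables, 1 per comparison of 2 groups, hold raw counts, counts normalized by the authors with DESeq2 1.40.2 (a signal scaled by size factors) and FPKM values. The authors' log2 fold changes and p-values of these deposited tables were not used. Only the counts were analysed, and the normalized signal and FPKM of the authors were left out. The single-cell data were not used here.

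The tables were joined into 26939 genes. Of 95230 counts listed in more than 1 table, 0 differed, and counts of a shared library listed in only 1 table were at most 1. Libraries were grouped by their titles. The genotype label of 1 Unc93b1 3d/3d control library does not match its title, and the title was used. The 2 libraries of a group differed beyond counting error, with a mean chi-square per gene of 7.5 to 102. Each comparison was fitted to its 4 libraries with edgeR 4.0.16 (R 4.3.3; TMM factors, filterByExpr, robust quasi-likelihood test, Benjamini-Hochberg adjustment over all tested genes), and the interaction to all 8. CPM used TMM factors over the 8 libraries. The limit of detection was 3 counts, which covers counting error only. Alternatives were DESeq2 1.42.0, other scaling factors and filters, a model of all 8 libraries, a replicate block, each library left out in turn, and, chosen after seeing the data, an offset for length and GC content (mgcv 1.9.3; GC known for 97.99% of the genes tested in WT TAMs) and the 8-library model without the library that stood apart. The fits were tested on simulated data.

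The 10 genes, the lists and the rules were chosen with earlier results of these data known. All 10 genes are described. From each list, the called genes whose groups did not overlap were to be named, at most 3 per direction, and any further called gene was named after its values were seen. For genes whose group means span at least 1 on the log2 scale, 3 genes of similar profile were named. The results of some list genes are not reported here.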

Additional observations from a re-analysis of the deposited data

Results flagged for a closer look

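Abca1 was singled out because its libraries moved in opposite directions under the same contrast. The log2 fold change of αMARCO was 1.20 in WT TAMs and −1.22 in Unc93b1 3d/3d TAMs. That of WT over Unc93b1 3d/3d was −1.96 in control and 0.48 in αMARCO TAMs. The interaction that tests both differences was 2.42 (adjusted p = 0.281, edgeR) with all libraries, 2.04 (adjusted p = 2.43e-05, edgeR) without the second Unc93b1 3d/3d αMARCO library and called in DESeq2 (adjusted p = 3.66e-07). With the offset for gene length and GC content and all libraries it was 2.15 (adjusted p = 0.0574, edgeR).

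Mylip had a log2 fold change of WT over Unc93b1 3d/3d of −0.46 in control and 0.37 in αMARCO TAMs, with every library of each comparison on opposite sides. Its interaction was 0.81 (adjusted p = 0.318, edgeR) and did not pass. Npc1 had −0.27 in control and 0.58 in αMARCO TAMs, and its interaction was 0.83 (adjusted p = 0.324, edgeR). Without the second Unc93b1 3d/3d αMARCO library the value under αMARCO was 0.21 (adjusted p = 0.166, edgeR) and the interaction 0.45 (adjusted p = 0.123), and those of Mylip were 0.29 (adjusted p = 0.654) and 0.72 (adjusted p = 0.138).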

How the results depend on the processing

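Of 820 log2 fold changes of the 10 genes under other settings, 710 kept their direction and call, 7 lost the call, 58 gained it and 45 changed sign. Settings that change only the threshold for a call reuse the main fit. Their log2 fold changes are counted here but could not change sign. The number of the 10 genes called for αMARCO in WT was 2, and became 1 with a log2 fold threshold of 1, 0 in the model of all 8 libraries and 1 to 2 with a library left out. For αMARCO in Unc93b1 3d/3d it was 0, and became 1 with DESeq2, 1 without a filter, 2 in the 8-library model without the library that stood apart and 0 to 3 with a library left out. Between control genotypes it was 4, and 7 by adjusted p alone. Between αMARCO genotypes it was 0, and became 2 with DESeq2, without a filter, in the 8-library model, with the replicate block and with the length and GC offset with or without the block, 4 in the 8-library model without the library that stood apart and 0 to 7 with a library left out. The interaction went from 0 to 1 with DESeq2 and without a filter, and to 0 to 4 with a library left out. The causes were not tested.

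Replicate numbers share only a number, since deviations of same-numbered libraries correlated at −0.077 to 0.135. With the replicate block 2, 0, 3, 2 and 0 of the 10 genes were called in the 5 comparisons. Ch25h between control genotypes was the call lost (adjusted p = 0.0596, edgeR).

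Log2 fold changes near 0 changed sign. For αMARCO in WT, Apoe became 0.08 with the length and GC offset and 0.07 with the block added, Npc1 −0.08 and −0.08, Ch25h −0.00 in the 8-library model and −0.02 without the library that stood apart, where Npc1 was −0.00. Without that library Mylip and Npc2 in Unc93b1 3d/3d were 0.05 and −0.29, and Npc2 between αMARCO genotypes 0.08. Npc2 between control genotypes was −0.02 with upper quartile factors and −0.00 with at least 10 counts. The Apoe interaction was 0.00 with DESeq2 and with its size factors, 0.04 with upper quartile factors, 0.06 with at least 10 counts, 0.02 with the block, 0.29 with the offset and 0.31 with both, and the Nr1h2 interaction 0.10 with the offset and 0.10 with both.

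With a library left out, ranges that crossed 0 were, for αMARCO in WT, −0.18 to 0.09 for Apoe, −0.49 to 0.05 for Nr1h3, −0.19 to 0.22 for Ch25h and −0.08 to 0.11 for Npc1. In Unc93b1 3d/3d they were −0.72 to 0.46 for Apoe, −0.10 to 0.06 for Mylip, −0.23 to 0.10 for Lpcat3 and −0.28 to 0.38 for Npc2. Npc2 between control genotypes ranged from 0.00 to 0.05. Between αMARCO genotypes they were −0.12 to 0.20 for Nr1h2 and −0.56 to 0.08 for Npc2, and in the interaction −0.49 to 0.66 for Apoe, −0.23 to 0.34 for Nr1h3, −0.23 to 0.08 for Nr1h2, −0.31 to 0.02 for Lpcat3 and −0.60 to 0.04 for Npc2.

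Over all genes, αMARCO in WT called 1393 higher and 1843 lower, against 2521 and 2966 by adjusted p alone, 604 and 762 at the larger fold, and 45 and 119 in the 8-library model. Control genotypes called 1027 and 998, against 514 and 437 at the larger fold and 249 and 115 in the 8-library model.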

Other observations

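Malat1, a nuclear noncoding RNA, had 637 CPM in the second Unc93b1 3d/3d αMARCO library and 1972 to 4166 CPM in the other 7 libraries. Neat1, another nuclear noncoding RNA, had 639 and 647 CPM in WT control and 1213 to 2235 CPM in the other 6 libraries. Mitochondrial genes took 1.03% to 1.25% of counts in the control libraries and 2.06% to 2.74% in the αMARCO libraries other than the one that stood apart, which had 1.39%.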
